A study of Rattus norvegicus with 5 samples.

Results

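Collagens other than the typical chains of hyaline cartilage were examined together with the enzymes and helpers that modify, fold, trim and cross-link collagen chains. The members are genes with a collagen chain symbol, leaving out types II, IX, X and XI, and the genes of the prolyl and lysyl hydroxylase, collagen galactosyltransferase, lysyl oxidase, Serpinh1 and Pcolce families. This rule used names and no measured value, and it took 51 of the 14217 genes that carry 1 symbol on the array. Of these, 34 are collagen chains and 17 are enzymes or helpers. They are read by 75 probe sets, with 33 genes on 1 probe set and 18 on several. Calling the chains non-cartilage is a matter of the rule only, since Col27a1 and the collagen VI chains are also known from cartilage.

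The cells came from wild type male Sprague-Dawley rats aged 5 weeks and were captured by laser from 7 µm frozen sections. In the mandibular condylar cartilage (MCC), the fibrocartilage of the jaw joint, 4 zones gave a group each, which are, from the articular surface inwards, FZ (fibrous), PZ (proliferative), MZ (mature chondrocytes) and HZ (hypertrophic chondrocytes). The fifth group, FCC, is femoral condylar cartilage, a hyaline cartilage of the knee, taken by the methods from its middle and deep layers. Each group is 1 array of RNA from pooled sections, 30 a group by the labels and more for FZ by the study's methods, and no source used here gives the number of animals. With 1 array per group there is no replicate check, no test was possible, and every difference compares those arrays only. The deposited values are log2 values set against each probe set's own median of the 5 arrays, so they carry differences between arrays and no level of expression. A gene has the mean of its probe sets, and the SD or range between probe sets of a gene is the only error that can be given.

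Collagen chains are hydroxylated on proline and lysine residues in the endoplasmic reticulum, glycosylated on some of the hydroxylysines, wound into a helix with the help of chaperones, and secreted as procollagen. Outside the cell the ends are trimmed, the molecules assemble into fibrils, networks or beaded filaments, and lysyl oxidases start their cross-links. Fibrous tissue is built mainly on collagen I, whereas hyaline cartilage is built on collagen II. The MCC is a fibrocartilage with a fibrous surface over cartilage, and so holds both.

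Most members varied over the arrays. The span between the highest and the lowest array was at least 1 on the log2 scale, which is 2-fold, in 32 of 51 members, against 27.2% of all genes, and at least 2, which is 4-fold, in 21 members, against 6.68% of all genes. HZ was the lowest array for 23 members, against 20.3% of all genes, and FZ the highest for 18, against 16.8%. The 19 members that spanned less than 1 ran from 0.18 for Col23a1, a transmembrane collagen, to 0.95 for Col4a5, a chain of basement membranes. They include Col1a2, Col5a2, Col4a4, Col4a6, Col7a1, Col17a1, Col19a1, Col20a1 and Col26a1 among the collagens, and P4ha2, P3h1, P3h4, Plod2, Plod3, Colgalt1, Serpinh1 and Pcolce among the enzymes and helpers.

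**Figure D1:**
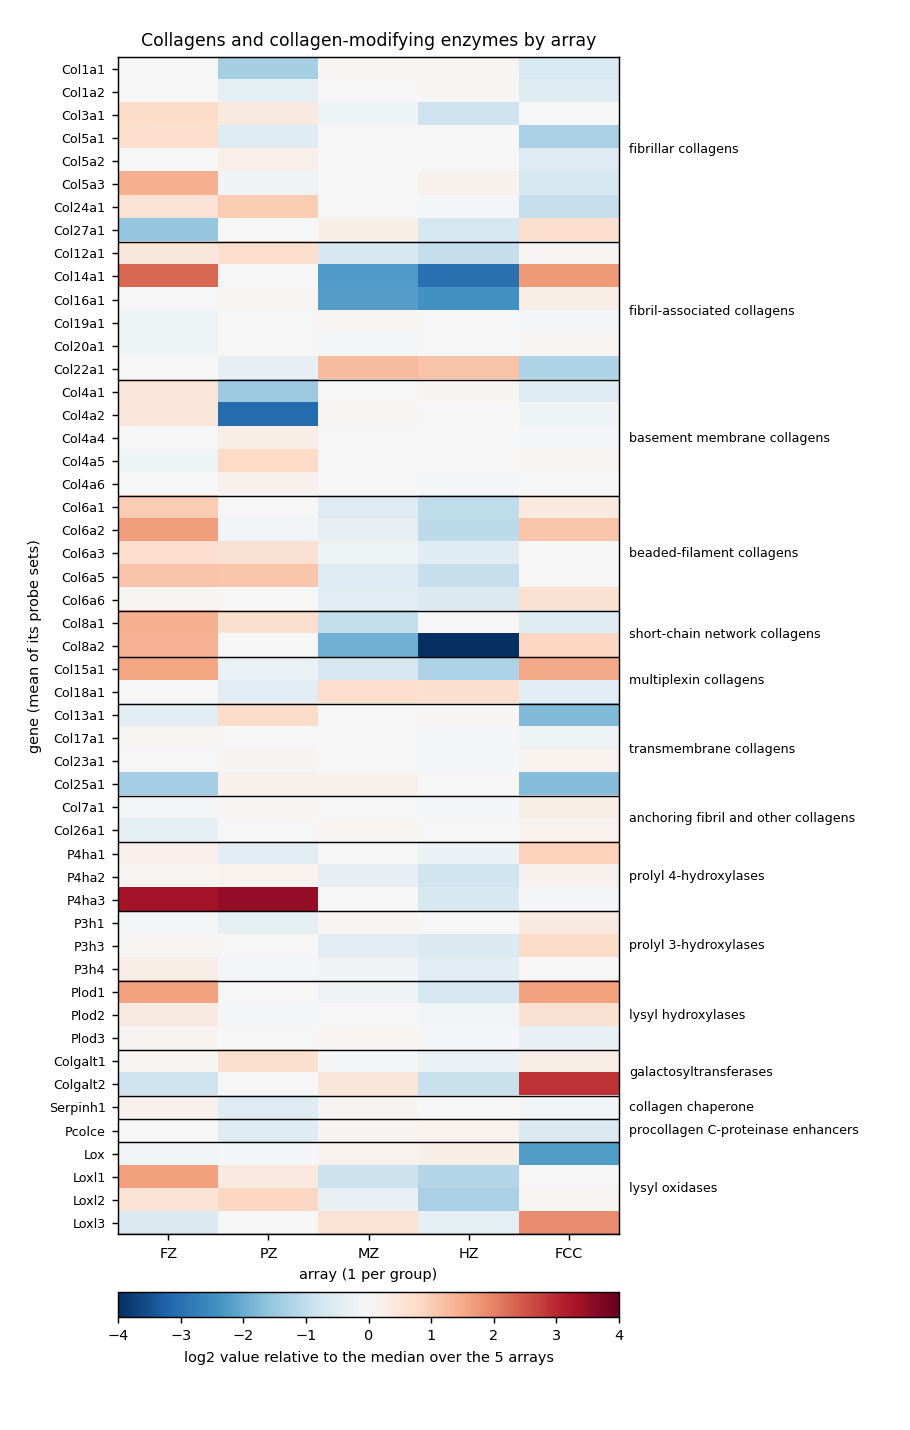
Deposited log2 values of the 51 members (rows, grouped by role) in the 5 arrays (columns FZ, PZ, MZ, HZ and FCC), each relative to the median of the gene's probe sets over the arrays, with blue below and red above it. P4ha3 stands out in FZ and PZ at 3.34 and 3.51, Col8a2 in HZ at −4.0, Col4a2 in PZ at −3.09 and Colgalt2 in FCC at 2.89.

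Within the MCC, members that differed by 1 or more between the superficial and the deep zones were mostly higher in the superficial ones. FZ and PZ also differed from each other, with 12 members at least 1 higher and 3 lower in FZ, against 6.1% and 1.12% of all genes. The superficial mean, of FZ and PZ, was at least 1 higher than the deep mean, of MZ and HZ, in 14 of 51 members, against 2.24% of all genes, and at least 1 lower in 2, against 3.78%. At a difference of 2 or more, 5 members were higher, against 0.654% of all genes, and 0 lower, against 0.274%. By gene means, both superficial arrays lay above both deep arrays in 23 members, against 19.7% of all genes. In 14 of these the means differed by at least 1, against 2.15%. The median difference was 0.12 over the members and 0.00 over all genes, so the pattern belongs to some members and not to the whole group. The 14 are 3 fibril-associated collagens, 3 chains of collagen VI, both chains of collagen VIII, Col15a1, Col3a1, P4ha3, Plod1, Loxl1 and Loxl2. Without PZ, with FZ set against the deep mean, all 14 remained and 2 were added, Col5a3 and Col6a3, while the lower ones became 3, Col22a1 with Col25a1 and Col27a1 added and Col4a2 at 0.47. In such pooled samples fewer cells of a type and less RNA per cell cannot be told apart.

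**Figure D2:**
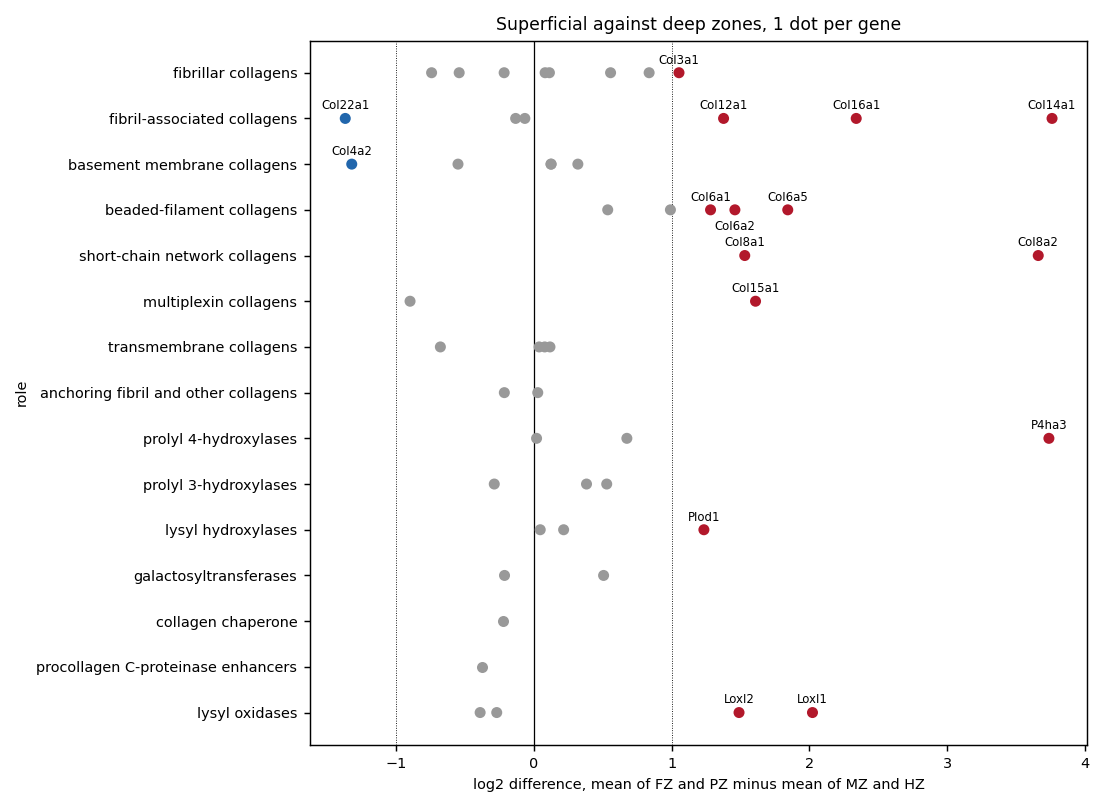
Superficial mean (FZ, PZ) minus deep mean (MZ, HZ) on the log2 scale (horizontal axis) for the 51 members, 1 dot per gene, in rows by role, with dotted lines at −1 and 1. The 14 named red dots lie at 1.05 or more and the 2 blue dots, Col22a1 and Col4a2, at −1.37 and −1.32.

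Fibril-forming collagens make up the bulk of most connective tissues, and those of collagen I varied little among FZ, MZ and HZ. Col1a1, a chain of collagen I, was at 0.00 in FZ, −1.32 in PZ, 0.07 in MZ, 0.09 in HZ and −0.61 in FCC. Its partner Col1a2 was at 0.00, −0.37, 0.00 and 0.06 in FZ, PZ, MZ and HZ, and at −0.51 in FCC. Each thus varied by less than 0.1 over FZ, MZ and HZ, and the low PZ value of Col1a1 rests on probe sets that differ, at −2.03 and −0.62. Col3a1, the chain of collagen III, which accompanies collagen I in pliable tissue, was at 0.74 in FZ, 0.35 in PZ, −0.18 in MZ, −0.83 in HZ and 0.00 in FCC, in the order of depth in the MCC, and the superficial mean was 1.05 higher than the deep one.

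The chains of collagen V, which starts collagen I fibrils and limits their width, were not alike. Col5a1 was at 0.72 in FZ, −0.52 in PZ, 0.00 in MZ, 0.03 in HZ and −1.29 in FCC. Col5a3 was at 1.43 in FZ, −0.14 in PZ, 0.00 in MZ, 0.18 in HZ and −0.63 in FCC, and Col5a2 spanned only 0.70. Col5a1 and Col5a3 were thus highest in FZ and lowest in FCC, and FZ was 2.06 higher than FCC for Col5a3 and 2.40 and 1.61 higher by the probe sets of Col5a1. Among minor fibrillar chains, Col24a1 was at 0.58 in FZ, 1.02 in PZ, 0.00 in MZ, −0.07 in HZ and −0.91 in FCC, while Col27a1 went the other way in FZ, at −1.55 there, 0.00 in PZ, 0.25 in MZ, −0.72 in HZ and 0.66 in FCC.

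Fibril-associated collagens sit on the surface of fibrils and link them to their surroundings. Col14a1, abundant in tendon and skin, was at 2.28 in FZ, 0.00 in PZ, −2.27 in MZ, −2.97 in HZ and 1.69 in FCC. Its superficial mean was 3.76 higher than its deep mean, and its probe sets gave 4.62 and 2.90. Col16a1 was at 0.00 in FZ, 0.07 in PZ, −2.19 in MZ, −2.42 in HZ and 0.26 in FCC, so that the superficial zones lay near FCC and the deep zones alone were low, by 2.34. Col12a1, the close relative of Col14a1, was at 0.44 in FZ, 0.71 in PZ, −0.64 in MZ, −0.96 in HZ and 0.03 in FCC, and its 3 probe sets put the superficial zones 1.11 to 1.78 higher.

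Col22a1, which is known from tissue junctions such as those of muscle and tendon, ran against Col12a1, Col14a1 and Col16a1. It was at 0.00 in FZ, −0.33 in PZ, 1.27 in MZ, 1.15 in HZ and −1.22 in FCC, and the superficial mean minus the deep one was −1.37. Unlike Col14a1 and Col16a1 it was also higher in the deep zones than in FCC, by 2.49 in MZ and 2.37 in HZ. Col19a1 and Col20a1 spanned 0.27 and 0.26, with superficial minus deep differences of −0.13 and −0.07.

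Collagen VI forms beaded filaments around cells, in cartilage as a shell around each chondrocyte. Col6a1 was at 1.03 in FZ, 0.00 in PZ, −0.51 in MZ, −1.02 in HZ and 0.39 in FCC. Col6a2 was at 1.66 in FZ, −0.10 in PZ, −0.31 in MZ, −1.04 in HZ and 1.11 in FCC. In both gene means the order ran FZ, PZ, MZ, HZ from high to low, and FCC lay between FZ and PZ. The 2 probe sets of Col6a2 were not alike in this. FZ minus FCC was 1.60 by 1 probe set and −0.50 by the other, and PZ minus MZ was −0.20 and 0.63.

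The third chain of the classical molecule, Col6a3, was at 0.66 in FZ, 0.61 in PZ, −0.21 in MZ, −0.50 in HZ and 0.00 in FCC. Its superficial mean was 0.99 higher than its deep mean, just under the size counted. Col6a5, an alternative to Col6a3, was at 1.14 in FZ, 1.12 in PZ, −0.51 in MZ, −0.92 in HZ and 0.00 in FCC. For Col6a3 and Col6a5, the gene means of FZ and PZ were within 0.05 of each other, although the probe sets of Col6a3 put FZ minus PZ at 0.53 and −0.43, whereas Col6a1 and Col6a2 were 1.03 and 1.76 higher in FZ than in PZ. Col6a6 varied less, at 0.04 in FZ, 0.00 in PZ, −0.44 in MZ, −0.59 in HZ and 0.60 in FCC.

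The short-chain collagen VIII forms hexagonal networks and is known from endothelium and cornea. Col8a2 was at 1.40 in FZ, 0.00 in PZ, −1.93 in MZ, −4.0 in HZ and 0.82 in FCC. Each deeper zone was lower, and the span of 5.40 was the largest of the 51 members. Col8a1 was at 1.43 in FZ, 0.65 in PZ, −0.98 in MZ, 0.00 in HZ and −0.48 in FCC, so that its lowest array was MZ and not HZ. The promoter of Col8a2, shown because it is the member with the largest span, is at chr5:143870519-143870818 on the plus strand of GRCr8, the RefSeq build used for sequences, and runs from 250 bases before to 50 after the start of the gene. Capitals mark the GC box GGGCGG, the letters that Sp1 family factors are known to bind, or CCGCCC where it lies on the other strand. It has 5 matches, of which 2 overlap.
Col8a2: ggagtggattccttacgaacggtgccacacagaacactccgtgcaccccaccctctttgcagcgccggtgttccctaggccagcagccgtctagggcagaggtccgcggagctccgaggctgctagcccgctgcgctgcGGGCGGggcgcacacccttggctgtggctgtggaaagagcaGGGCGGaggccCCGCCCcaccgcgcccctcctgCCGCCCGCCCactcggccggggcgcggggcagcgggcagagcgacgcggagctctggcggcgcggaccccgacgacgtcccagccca

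The multiplexins, collagens of the basement membrane zone whose ends release endostatin-like fragments, diverged. Col15a1 was at 1.56 in FZ, −0.25 in PZ, −0.67 in MZ, −1.23 in HZ and 1.53 in FCC, so that FZ and FCC were near each other and above the rest. Its probe sets gave superficial minus deep differences of 2.23 and 0.99. The probe set with 0.99 put PZ below MZ, at −0.51 and 0.00. Col18a1 was at −0.02 in FZ, −0.45 in PZ, 0.70 in MZ, 0.63 in HZ and −0.43 in FCC. Against FCC, Col18a1 was thus 1.14 and 1.06 higher in MZ and HZ, while Col15a1 differed by −2.20 and −2.76.

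In basement membrane collagen IV, PZ was low for Col4a1 and Col4a2 but not for the minor chains. Col4a2 was at 0.49 in FZ, −3.09 in PZ, 0.05 in MZ, 0.00 in HZ and −0.18 in FCC, and Col4a1, which pairs with it in most basement membranes, was at 0.48 in FZ, −1.44 in PZ, 0.03 in MZ, 0.12 in HZ and −0.53 in FCC. Both were lowest in PZ and near their medians in MZ and HZ, and the probe sets of Col4a1 gave −2.19 and −0.70 in PZ. The difference of PZ from the mean of the 4 remaining arrays was −3.18 for Col4a2 and −1.47 for Col4a1. By this measure 3 members were at least 1 lower in PZ, Col1a1 being the other one, against 5.54% of all genes. Another 6 were higher, against 1.31%. The 6 are P4ha3 (2.85), Col13a1 (1.28), Col6a5 (1.19), Col16a1 (1.16), Col24a1 (1.12) and Loxl2 (1.07), all outside collagen IV. The minor chains Col4a4, Col4a5 and Col4a6 were at 0.28, 0.78 and 0.16 in PZ, where they were the highest of the 5 arrays. Of 16 endothelial markers, 4 were at least 1 lower and 0 higher in PZ by the same measure. The genes of Col4a1 and Col4a2 are transcribed in opposite directions from starts 77 bases apart in RefSeq, on the plus and the minus strand, and the bases that the promoter windows of both genes share are shown because both genes were low on the PZ array. They are at chr16:84885471-84885646 in GRCr8, written on the plus strand, and the capitals mark 2 GC boxes and 1 CCAAT box (ATTGG on this strand).
Col4a1 and Col4a2: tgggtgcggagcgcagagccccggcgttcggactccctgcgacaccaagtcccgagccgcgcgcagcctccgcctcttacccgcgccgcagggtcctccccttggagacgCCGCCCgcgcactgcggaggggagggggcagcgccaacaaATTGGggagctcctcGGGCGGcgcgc

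**Figure D3:**
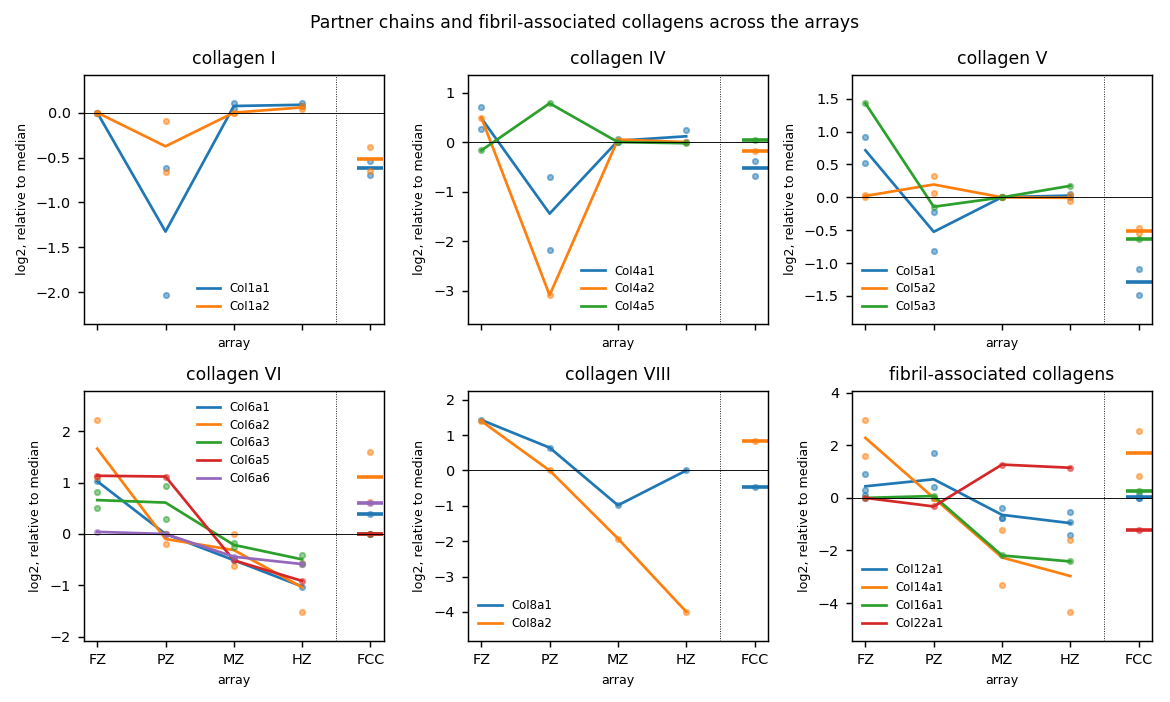
Log2 values relative to the median over the arrays (vertical axis) in FZ, PZ, MZ, HZ and, right of the dotted line, FCC, for chains that share a collagen type and for the fibril-associated collagens, with lines and bars for gene means and dots for single probe sets. Col4a1 and Col4a2 dip in PZ to −1.44 and −3.09 while Col4a5 is at 0.78, and Col22a1 is at 1.27 and 1.15 in MZ and HZ, where Col14a1 is at −2.27 and −2.97.

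Transmembrane collagens sit in the cell membrane and hold cells to matrix. Col13a1 was at −0.46 in FZ, 0.73 in PZ, 0.00 in MZ, 0.04 in HZ and −1.78 in FCC, so that FCC was lowest, by 1.32 or more. Col25a1, best known from neurons and muscle innervation, was at −1.37 in FZ, 0.17 in PZ, 0.16 in MZ, 0.00 in HZ and −1.73 in FCC, low in FZ as well as in FCC. Both were at least 1 lower in FZ than in PZ, with differences of −1.18 and −1.54, which were −0.60 and −0.95 once the arrays were shifted by the hybridization controls, spike-in transcripts from other organisms.

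Prolyl 4-hydroxylases add the hydroxyl groups that make the collagen helix stable at body heat, and each alpha subunit pairs with P4hb. P4ha3, a minor alpha subunit, was at 3.34 in FZ, 3.51 in PZ, 0.00 in MZ, −0.63 in HZ and −0.08 in FCC, by 1 probe set. It was the only enzyme at least 2 higher in both superficial zones than in each other array. P4ha1, the most widespread subunit, was at 0.20 in FZ, −0.41 in PZ, 0.00 in MZ, −0.25 in HZ and 0.91 in FCC, and P4ha2, abundant in chondrocytes, at 0.08 in FZ, 0.14 in PZ, −0.34 in MZ, −0.79 in HZ and 0.16 in FCC. Neither had the superficial high of P4ha3, and P4hb, the shared partner, was at 0.00, 0.17, −0.16 and −0.17 in FZ, PZ, MZ and HZ and at 0.03 in FCC. The P4ha3 promoter, shown for the enzyme with the largest superficial difference, lies at chr1:164040614-164040913 on the plus strand of GRCr8 and holds 6 GC boxes, in capitals, of which 2 overlap.
P4ha3: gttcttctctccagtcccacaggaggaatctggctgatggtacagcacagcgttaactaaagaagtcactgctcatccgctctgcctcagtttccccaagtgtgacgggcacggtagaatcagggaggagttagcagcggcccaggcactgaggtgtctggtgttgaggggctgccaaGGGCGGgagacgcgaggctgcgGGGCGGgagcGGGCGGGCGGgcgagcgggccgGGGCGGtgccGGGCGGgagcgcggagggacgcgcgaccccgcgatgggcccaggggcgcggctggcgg

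The lysyl and prolyl 3-hydroxylases spanned less than P4ha3. Plod1, a lysyl hydroxylase of the helix, was at 1.60 in FZ, 0.00 in PZ, −0.15 in MZ, −0.72 in HZ and 1.62 in FCC, high in FZ and FCC, as Col15a1 was. Plod2, which acts on the telopeptides where cross-links form, spanned 0.72, and Plod3, which also transfers sugars, spanned 0.41. P3h3, of the prolyl 3-hydroxylase family, was at 0.03 in FZ, 0.00 in PZ, −0.45 in MZ, −0.58 in HZ and 0.73 in FCC, whereas P3h1 and P3h4 spanned 0.76 and 0.68.

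Galactosyltransferases put the first sugar on hydroxylysine. Colgalt2 was at −0.84 in FZ, 0.00 in PZ, 0.49 in MZ, −0.90 in HZ and 2.89 in FCC. It was therefore lower in all 4 zones than in FCC, with differences from −3.79 to −2.40, while the more widespread Colgalt1, with 4 probe sets, spanned 0.89. The Colgalt2 promoter, shown because the gene had the largest span of the members that were higher in FCC than in every zone, lies at chr13:67073301-67073600 on the plus strand of GRCr8. Capitals mark 2 matches to CCAAT and 1 to TATAAA, the letters of the TATA box, and there is no GC box. These are matches of letters anywhere in the window, and their distance from the start was not assessed.
Colgalt2: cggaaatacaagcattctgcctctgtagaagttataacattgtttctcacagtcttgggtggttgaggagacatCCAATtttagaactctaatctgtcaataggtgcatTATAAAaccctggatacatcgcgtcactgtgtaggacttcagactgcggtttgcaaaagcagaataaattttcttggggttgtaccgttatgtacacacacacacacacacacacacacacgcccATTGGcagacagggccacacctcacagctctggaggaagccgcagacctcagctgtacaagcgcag

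These motifs are common and are given as a description of the letters. Promoter sequences were found for 42 of the members, as 45 windows. On either strand, the GC box occurred in 28 of these windows and in 33.1% of 33469 rat promoter windows, CCAAT in 10 and in 37.5%, TATAAA in 4 and in 14.2%, and the core ACGTG of hypoxia response elements in 7 and in 19.3%. Col1a1, Col3a1, Col6a2, Col12a1, Col14a1, Col22a1, Col25a1, Lox and Loxl2 had no entry.

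Lysyl oxidases, the enzymes that start collagen cross-links, split in opposite directions. Lox itself was at −0.09 in FZ, −0.06 in PZ, 0.13 in MZ, 0.25 in HZ and −2.22 in FCC. It was 2.13 to 2.47 higher in each zone than in FCC, and differed little among the zones, with probe sets at −1.48 and −2.97 in FCC. Loxl3 was the reverse, at −0.58 in FZ, 0.00 in PZ, 0.58 in MZ, −0.38 in HZ and 1.89 in FCC.

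Loxl1, which is known for elastic fibres, was at 1.63 in FZ, 0.38 in PZ, −0.86 in MZ, −1.17 in HZ and 0.00 in FCC, and with Col5a3 it was 1 of 2 members at least 1 higher in FZ than in every other array, against 0.478% of all genes. Loxl2 was at 0.56 in FZ, 0.82 in PZ, −0.31 in MZ, −1.30 in HZ and 0.04 in FCC. Both were lower in each deep zone than in either superficial one, by 2.02 and 1.49 between the means. The helpers Serpinh1, the collagen chaperone of the endoplasmic reticulum, and Pcolce, which speeds removal of the carboxyl end, were both lowest or nearly so in PZ, at −0.52 and −0.51, where the probe sets of Serpinh1 gave −0.82 and −0.22.

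**Figure D4:**
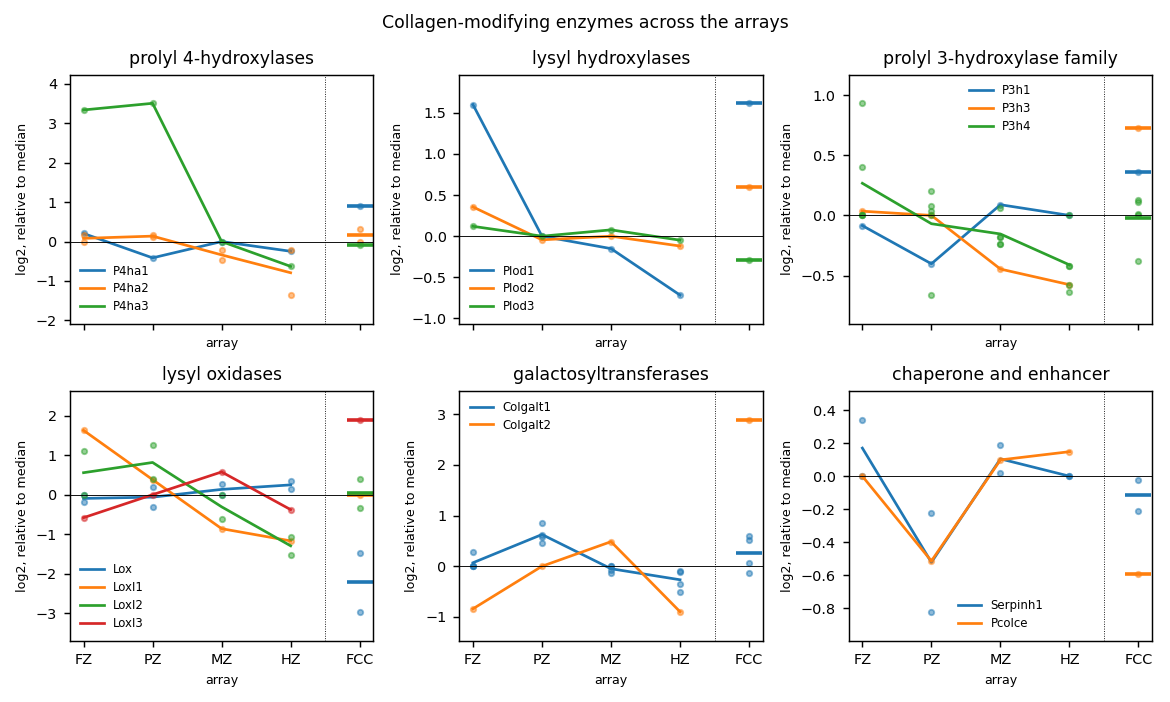
Log2 values relative to the median over the arrays (vertical axis) in FZ, PZ, MZ, HZ and, right of the dotted line, FCC, for 6 groups of collagen-modifying enzymes and helpers, with lines and bars for gene means and dots for single probe sets. P4ha3 is at 3.34 and 3.51 in FZ and PZ while P4ha1 and P4ha2 stay under 1, and in FCC Lox is at −2.22 and Loxl3 at 1.89.

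Set against FCC, the zones differed in which members they held higher or lower. In FZ, 11 members were at least 1 higher, against 5.69% of all genes, and 3 were lower, against 4.21%. The 11 include P4ha3 (3.42), Lox (2.13), Col5a3 (2.06), Col5a1, Col8a1 (1.91) and Loxl1 (1.63), and the 3 are Colgalt2 (−3.73), Loxl3 (−2.48) and Col27a1 (−2.21). In PZ, 7 were higher, against 4.65% of all genes, led by P4ha3 (3.59), Col13a1 (2.51) and Lox (2.16), and 8 were lower, against 7.49%, led by Col4a2 (−2.91) and Colgalt2 (−2.89). At a difference of 2 or more, FZ held 4 members higher, against 0.837% of all genes, and 3 lower, against 1.49%, and PZ held 3 higher, against 0.598%, and 2 lower, against 1.77%.

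In the deep zones more members were lower than higher, as deposited. In MZ, 6 members were at least 1 higher than in FCC, against 6.98% of all genes, and 10 were lower, against 4.74%, the lower ones led by Col14a1 (−3.96), Col8a2 (−2.75) and Col16a1 (−2.45). In HZ, 6 were higher, against 8.09%, and 15 were lower, against 5.98%, with Col8a2 at −4.82, Col14a1 at −4.67 and Colgalt2 at −3.79. At a difference of 2 or more, MZ held 2 members higher, against 1.11% of all genes, and 5 lower, against 1.49%, and HZ held 2 higher, against 1.51%, and 8 lower, against 2.18%. This balance of counts depends on the scaling: with the arrays shifted by their hybridization controls it turned round, to 13 higher and 6 lower in MZ and 14 higher and 8 lower in HZ. Of all genes, 19.8% were then higher and 2.48% lower in MZ, and 20.5% higher and 3.3% lower in HZ. The shift moves all genes of an array alike. After it the member median stayed below that of all genes, at 0.39 against 0.55 in MZ and 0.21 against 0.52 in HZ. As deposited, the same 6 members were higher in both deep zones, namely Col22a1, Lox, Col25a1, Col13a1, Col5a1 and Col18a1. All these comparisons share the FCC array. Lox and Col13a1 were at least 1 higher than FCC in all 4 zones, against 1.83% of all genes, and Colgalt2 and Loxl3 were at least 1 lower in all 4, against 2.62%.

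Neighbouring zones were compared too. FZ was at least 1 higher than PZ in 12 members, against 6.1% of all genes, and lower in 3, against 1.12%. The largest differences were 3.58 for Col4a2, 2.28 for Col14a1 and 1.93 for Col4a1, and Col27a1, at −1.55, was the lowest. At a difference of 2 or more, 2 were higher, against 0.577% of all genes, and 0 lower, against 0.148%. MZ was at least 1 higher than HZ in only 2 members, Col8a2 (2.07) and Colgalt2 (1.38), against 0.907% of all genes, and lower in 0, against 0.204%. Only Col8a2 was at least 2 higher, 1 of 51 members against 0.239% of all genes, and 0 members or genes were lower by that much. Between the outermost and the innermost zone, 16 members were at least 1 higher in FZ than in HZ, against 3.57% of all genes, among them Col8a2 (5.40), Col14a1 (5.25) and P4ha3 (3.97), and 2 were lower, against 3.21%, Col25a1 (−1.37) and Col22a1 (−1.15).

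**Figure D5:**
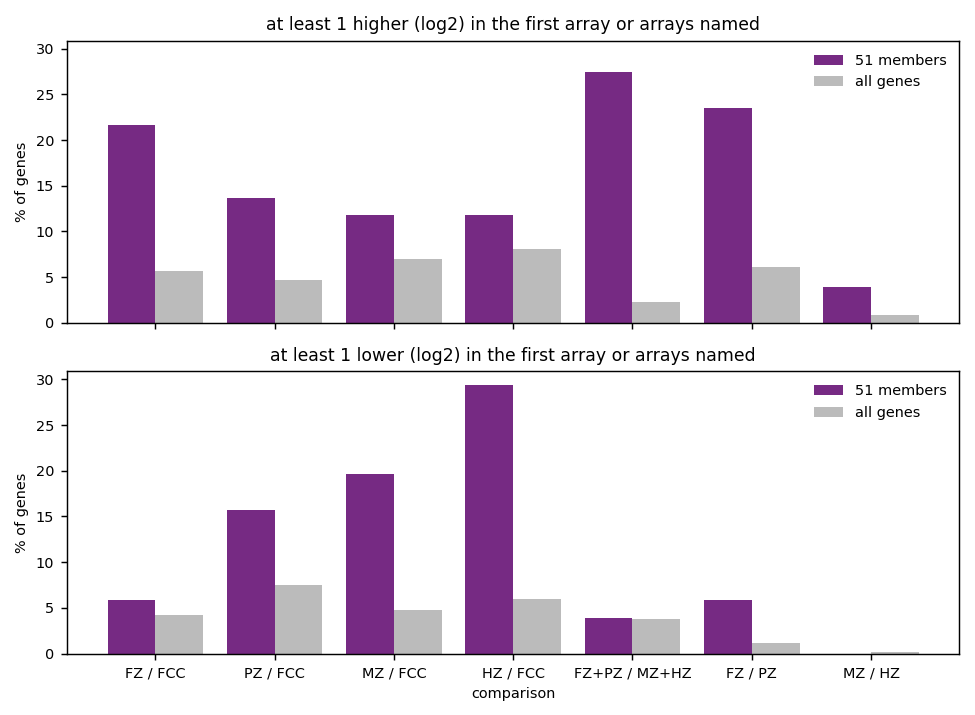
Share of genes (%, vertical axis) at least 1 higher (upper panel) or lower (lower panel) on the log2 scale in the first array or arrays named of each comparison, for the 51 members in purple and all 14217 genes in grey. Of the comparisons plotted, the purple bars stand furthest above the grey for the superficial zones against the deep ones (14 members higher) and for HZ against FCC (15 members lower).

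Genes that work with these members were taken from lists of the pathway. For their superficial against deep counts, here and in the next paragraph, the shares of all genes are 2.24% higher and 3.78% lower. Of 10 proteoglycans that bind collagen fibrils, 4 were at least 1 higher in the superficial zones than in the deep ones and 0 were lower. They are Aspn (3.88), Fmod (3.02), Prelp (2.72) and Podn (1.02), while Dcn, the most general of the class, was at −0.45. Of 19 genes for folding and secretion of collagen, 0 were higher and 1 was lower, Sparc, a calcium-binding chaperone-like matrix protein, at −1.11. That difference lay in PZ, since Sparc was at −0.09 in FZ and −2.04 in PZ. Ppib, the prolyl isomerase of the P3h1 complex, was likewise at 0.00 in FZ and −1.12 in PZ, and Fkbp10, another isomerase of procollagen, at −0.04 in FZ and −1.04 in PZ. Mia3, of the same list, went the other way, at 0.00 in FZ and 1.02 in PZ. Against the mean of the 4 remaining arrays, 3 of the 19 were at least 1 lower in PZ and 1 was higher. The shares of all genes were 5.54% and 1.31%. Creb3l1, a transcription factor that drives collagen secretion, was 1.14 to 1.68 higher in the zones than in FCC, and Mia3 was 1.02 to 2.06 higher. Lox was also higher in every zone. Creb3l2, of the same list, was lower than in FCC, by −1.33 (HZ), −1.08 (MZ), −0.42 (PZ) and −0.58 (FZ). Of the 19, 2 were at least 1 higher than FCC in each deep zone and 1 was lower. In PZ 3 were higher and 4 lower, and in FZ 2 and 0.

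Of 17 partners of collagen IV in basement membranes, 2 were higher in the superficial zones and 0 lower, Lama2, a laminin chain of muscle and nerve sheaths, at 2.44 and Pxdn, the peroxidase that cross-links collagen IV, at 1.13. Of 6 collagen receptors, the integrin chain Itga11 differed by 1.18 and its relative Itga1 by −1.45. Of 12 collagen-degrading enzymes, 0 were higher and 2 lower, Mmp9 at −1.47 and the protease Ctsb at −1.21, and Ctsb was at −0.07 in FZ and −2.33 in PZ. Of 4 proteases that trim procollagen, 0 passed in either direction, and Bmp1, the main C-proteinase, was 1.36 and 1.18 higher in MZ and HZ than in FCC.

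Marker lists of tissues and cells were counted in the same comparisons. A list of 21 tendon and fibrous tissue genes that are no members had 11 at least 1 higher and 0 lower in the superficial zones, against the 2.24% and 3.78% of all genes given above. The lists overlap and are not separate counts. Of the list of proteoglycans above, for example, Aspn, Fmod and Lum recur among the tendon genes, Prelp and Chad among those of hyaline cartilage, and Omd among the osteoblast genes. Of 19 genes of hyaline cartilage matrix, 17 (FZ), 14 (PZ), 15 (MZ) and 16 (HZ) were lower than in FCC. The shares of all genes were 4.21%, 7.49%, 4.74% and 5.98%. In no zone was a gene of this list higher, against 5.69%, 4.65%, 6.98% and 8.09% of all genes. Within the MCC this list did not follow depth, with 4 higher and 7 lower in the superficial zones. In PZ 10 were higher and 0 lower than in HZ, against 3.37% and 8.41% of all genes. In the superficial zones 9 of 11 erythroid, 7 of 13 leukocyte, 6 of 16 endothelial and 3 of 10 osteoblast genes were at least 1 lower than in the deep zones, and 0 of each were higher. Likewise 4 of 10 cartilage hypertrophy, 2 of 6 osteoclast and 2 of 8 adipocyte genes were lower and 0 higher. The other way, 2 of 12 smooth muscle and pericyte and 1 of 11 skeletal muscle genes were higher and 0 lower. Of 3 synovium genes, 0 passed in either direction. The 5′ minus 3′ difference of the GAPDH control probe sets was −0.07 in FZ, 1.36 in PZ, −0.13 in MZ, 0.27 in HZ and −0.21 in FCC, and that of β-actin was 0.14 in FZ, 0.14 in PZ, −0.10 in MZ, −0.24 in HZ and 1.24 in FCC. Each probe set is set against its own median, so these values compare arrays and are no 5′ to 3′ ratios. For GAPDH in PZ the 3′ probe set was at −1.46 and the 5′ one at −0.10. For β-actin in FCC they were at −1.76 and −0.52. The part of other cells and of RNA quality in the values of the members, the PZ low of Col4a1 and Col4a2 and the FCC low of Lox included, was not tested. For the 18 members with several probe sets, the median SD between them was 0.22 for superficial against deep zones and 0.66 for FZ against PZ, beside 0.20 and 0.30 over all 4525 such genes.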

How the data were processed

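Values came from rat Affymetrix arrays. The authors made the deposited log2 values by RMA, with quantile normalization and each probe set baselined to its median. MAS5 and RMA are the tools in the submitters' processing notes, and a genome build was not given in the sources used here. Quantile normalization equalizes the arrays, so a shift common to most genes is removed. Of 31099 probe sets, 57 controls were left out. Of the other 31042, 20826 carry 1 symbol in the platform annotation, 436 carry several and 9780 are not listed and stay unnamed. All 51 member symbols are current in RefSeq, and Col28a1, Col4a3, Col6a4, Loxl4 and P3h2 are not analysed here.

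Differences on the log2 scale were computed in Python 3.11.15 (pandas 2.3.3, numpy 2.4.6), plotted with matplotlib 3.10.9, and counted at 1 and at 2, the study's 4-fold. The functions were checked on simulated data. The members and lists were chosen with earlier results of these data known. Members spanning at least 1 over the arrays are named with their values in all 5, others with their span or in clauses. Of pathway lists, genes at least 1 apart between superficial and deep zones or from FCC may be named. P4hb and Dcn fall outside this rule and were named after their values were seen. Alternatives were centring the arrays, shifting them by the hybridization controls, the probe set with the largest SD, the threshold of 2 and, added after the data were seen, leaving out the PZ array.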

Additional observations from a re-analysis of the deposited data

How the results depend on the processing

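The precision is limited by 1 array per group and by single probe sets for 33 of the 51 members, and without levels it cannot be said which members were above background. No paired analysis was possible because each group has 1 array. Centring the arrays on their medians changed nothing, as those medians are 0 in the deposited values, so it tests nothing. The hybridization controls averaged −0.15 (FZ), 0.44 (PZ), −0.02 (MZ), −0.03 (HZ) and 0.50 (FCC). After a shift of the arrays by them, the median of all genes against FCC was 0.66 (FZ), 0.07 (PZ), 0.55 (MZ) and 0.52 (HZ), that of FZ against PZ was 0.59 and that of superficial against deep zones −0.17. Members at least 1 higher than FCC then numbered 27 in FZ (as deposited 11), 13 in MZ (6) and 14 in HZ (6), beside 24.3%, 19.8% and 20.5% of all genes. Members lower than FCC numbered 6 of 51 in MZ (10) and 8 of 51 in HZ (15), beside 2.48% and 3.3% of all genes. More members were thus higher than lower in MZ and HZ, the reverse of the deposited balance of counts. The member medians in MZ and HZ stayed below those of all genes, at 0.39 and 0.21. Those lower in FZ than in PZ numbered 0 (3), beside 0.246%. The superficial against deep counts became 13 higher and 3 lower. With the probe set of the largest SD, 4 were lower superficially (2) and 4 higher in MZ than in HZ (2). At a difference of 2, members higher than FCC numbered 4 (FZ), 3 (PZ), 2 (MZ) and 2 (HZ), and members lower numbered 2 in PZ, 5 in MZ and 8 in HZ. At that size 5 were higher and 0 lower in the superficial zones, 2 higher and 0 lower in FZ than in PZ, and 1 higher in MZ than in HZ. Without the PZ array, a setting chosen after seeing the data, 16 were higher and 3 lower in FZ than in the deep zones. Col4a2, at −1.32 as deposited, was at 0.47 without PZ. No called value changed direction under the other settings, but sizes did change. Of 224 differences of members spanning at least 1, 113 moved under the shift by the hybridization controls and 111 did not. A move is a change larger than the SD between the gene's probe sets. For members with 1 probe set, the median SD over all genes with several was used.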
